A study of Mus musculus with 14 samples.

Results

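A set of 47 DNA repair and damage signalling genes was followed in Lgr5-marked intestinal crypt cells with and without the autophagy gene Atg7. The set was given as gene symbols, covers 11 repair roles, and takes every row of the deposited expression table that carries one of those symbols. Of the 47 genes, 46 had a row among the 24675 genes with a single symbol. Tdg, a thymine DNA glycosylase of base excision, stayed below the filter on low values, Xrcc2 was not analysed here, and 45 members were tested.

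Each of 14 sorted samples was hybridised to its own Affymetrix Mouse Gene 2.0 ST array. Atg7KO mice carried Atg7(fl/fl);Lgr5-EGFP-IRES-CreERT2, in which tamoxifen activates a Cre recombinase made where Lgr5 is expressed, and the WT mice carried the same Lgr5 cassette without the floxed alleles. Tamoxifen was given for 5 consecutive days to both genotypes and cells were collected 1 month afterwards, so the cassette and the drug are common to all groups. Low-CD24 cells with high EGFP (the labels' intestinal stem cells) and with low EGFP (their transit amplifying progenitors) were sorted from individual mice, which gave 3 Atg7KO and 3 WT samples of EGFP high cells, and 4 Atg7KO and 4 WT samples of EGFP low cells. Arrays are named by group and title number, as in WT-Low-411.

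Cells meet DNA damage with a set of partly separate pathways. The kinases Atm and Atr sense breaks and stalled replication forks and signal through Chek2 and Chek1, homologous recombination and end joining mend double-strand breaks, Fanconi anaemia proteins deal with crosslinks, and excision and mismatch pathways replace damaged or mispaired bases. Many genes of recombination and crosslink repair are transcribed most strongly in cells that replicate their DNA. Lgr5-positive stem cells at the crypt base divide throughout life and are known for a damage response that differs from that of their progeny.

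Promoter windows are shown for the 4 members with the firmest difference between EGFP high and EGFP low cells of WT mice. They run from 250 bases before to 50 bases after the annotated gene start in RefSeq (GRCm38.p6), and are given 5′ to 3′ on the strand of the gene. Capitals mark matches, on either strand, to words linked with 6 factors: TTTGGCGC or TTTCCCGC (E2F), CCGGAAG (ETS), CCAAT (NFY), GGGCGG (SP1), TTTGAA (the CHR element) and GCATGCGC (NRF1). Adjacent SP1 matches overlap and merge in the capitals. The windows lie at chr9:53536622-53536921 (Atm, minus strand), chr14:50924699-50924998 (Apex1, plus strand), chr17:87974800-87975099 (Msh6, plus strand) and chr9:14784404-14784703 (Mre11a, plus strand).
Atm: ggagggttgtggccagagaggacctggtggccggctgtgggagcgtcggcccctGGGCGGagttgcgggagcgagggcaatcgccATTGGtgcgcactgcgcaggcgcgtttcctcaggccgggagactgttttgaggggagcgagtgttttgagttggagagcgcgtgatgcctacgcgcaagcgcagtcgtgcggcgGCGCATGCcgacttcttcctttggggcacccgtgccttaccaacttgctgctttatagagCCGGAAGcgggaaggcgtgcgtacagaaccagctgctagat
Apex1: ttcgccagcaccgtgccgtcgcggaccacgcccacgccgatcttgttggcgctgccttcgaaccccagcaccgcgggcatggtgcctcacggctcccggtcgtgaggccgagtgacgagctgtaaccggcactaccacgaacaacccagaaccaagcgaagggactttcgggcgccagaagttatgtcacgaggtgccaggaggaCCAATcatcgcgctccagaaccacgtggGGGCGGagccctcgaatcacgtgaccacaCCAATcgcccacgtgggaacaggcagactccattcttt
Msh6: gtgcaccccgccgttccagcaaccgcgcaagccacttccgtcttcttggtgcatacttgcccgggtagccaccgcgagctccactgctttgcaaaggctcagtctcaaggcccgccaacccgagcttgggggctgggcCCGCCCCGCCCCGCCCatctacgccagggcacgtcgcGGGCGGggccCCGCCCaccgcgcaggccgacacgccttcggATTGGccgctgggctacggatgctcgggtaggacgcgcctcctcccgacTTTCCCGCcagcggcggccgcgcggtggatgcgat
Mre11a: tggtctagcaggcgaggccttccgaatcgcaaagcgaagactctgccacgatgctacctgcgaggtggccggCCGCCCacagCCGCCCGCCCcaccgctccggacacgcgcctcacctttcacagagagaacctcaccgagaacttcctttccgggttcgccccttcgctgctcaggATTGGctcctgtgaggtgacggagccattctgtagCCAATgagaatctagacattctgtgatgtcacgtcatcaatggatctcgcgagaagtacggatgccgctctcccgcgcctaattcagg

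The Atm window held 1 match each to the SP1, NFY, NRF1 and ETS words, and the Apex1 window 2 NFY matches beside 1 SP1 match. Msh6 was the only window of these 4 with an E2F word, 15 bases after the start, beside 5 SP1 matches and 1 NFY match. Mre11a had 3 SP1 and 2 NFY matches. Over the repair set, 39 members had an entry, with 44 windows in all. An E2F word was present in 13.6% of the members' windows, against 2.63% of the 15217 windows of all tested genes. The NRF1 word was in 15.9% against 4.39%, the NFY word in 59.1% against 37.4%, the SP1 word in 65.9% against 56%, and the ETS word in 22.7% against 14.7%. The CHR word was in 2.27% of the members' windows against 12.7%. The 6 members with an E2F word were Brca2, Chek2, Msh3, Msh6, Rad51c and Xrcc6. A match is a description of the letters in the window and not of a bound site.

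All values are the authors' log2 RMA values, and differences between groups are log2 differences from limma fitted over all 14 arrays. P-values were adjusted by Benjamini-Hochberg over the 15873 tested genes, and a gene was called at an adjusted p under 0.05. Atg7 was at 6.13, 6.37 and 5.91 in Atg7KO and 6.77, 6.76 and 6.83 in WT EGFP high cells, and at 5.78, 6.06, 6.05 and 5.65 in Atg7KO and 6.92, 6.77, 7.49 and 6.46 in WT EGFP low cells. The 7 Atg7KO arrays all lay below the 7 WT arrays (highest Atg7KO 6.37, lowest WT 6.46), although neither difference was called (limma adjusted p = 0.208 for EGFP high cells, 0.166 for the low gate). Which exons are floxed, and whether the Atg7 probes lie in them, is not given in the sources used here. Lgr5 ranged from 8.69 to 9.30 on the 6 EGFP high arrays and from 4.65 to 6.25 on the 8 EGFP low arrays, as the gates' names say. The narrowest spread of values was on 2 arrays, Atg7KO-High-356 (SD over all probe sets 1.900) and WT-Low-411 (1.904), and WT-Low-411 also stood apart on the second principal component (14.7% of the variance). Where leaving out one of these arrays turned the sign of a member's difference named below or moved it by more than 1.5 times, the value without it stands beside it or the change is stated.

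In WT mice the repair genes were mostly higher in EGFP high than in EGFP low cells. Of 45 members, 43 had positive differences, with a median of 0.35 (range -0.15 to 0.88), against a median of 0.031 over all tested genes. Only Atm, the kinase that answers double-strand breaks, rose at an adjusted p under 0.05, against 2.44% of all genes called in either direction. At an unadjusted p under 0.05, 17 members were higher and 0 lower, where 8.88% of all genes were higher and 5.91% lower. For 16 members every EGFP high array lay above every EGFP low array, and for 0 below, against 9.97% and 6.52% of all genes. The members with negative differences were Lig4 (-0.15 ± 0.20, SE), the end joining ligase, and Pms2 (-0.0088 ± 0.14), a mismatch repair endonuclease. Pms2 was at -0.045 without WT-Low-411 and turned positive without WT-Low-407 (0.067) or WT-High-388 (0.016). Without the 2 narrowest arrays 41 of 45 members had positive differences, with a median of 0.31. In sorted bulk samples a different share of cells of one type and a different amount of RNA per cell cannot be told apart.

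**Figure D1:**
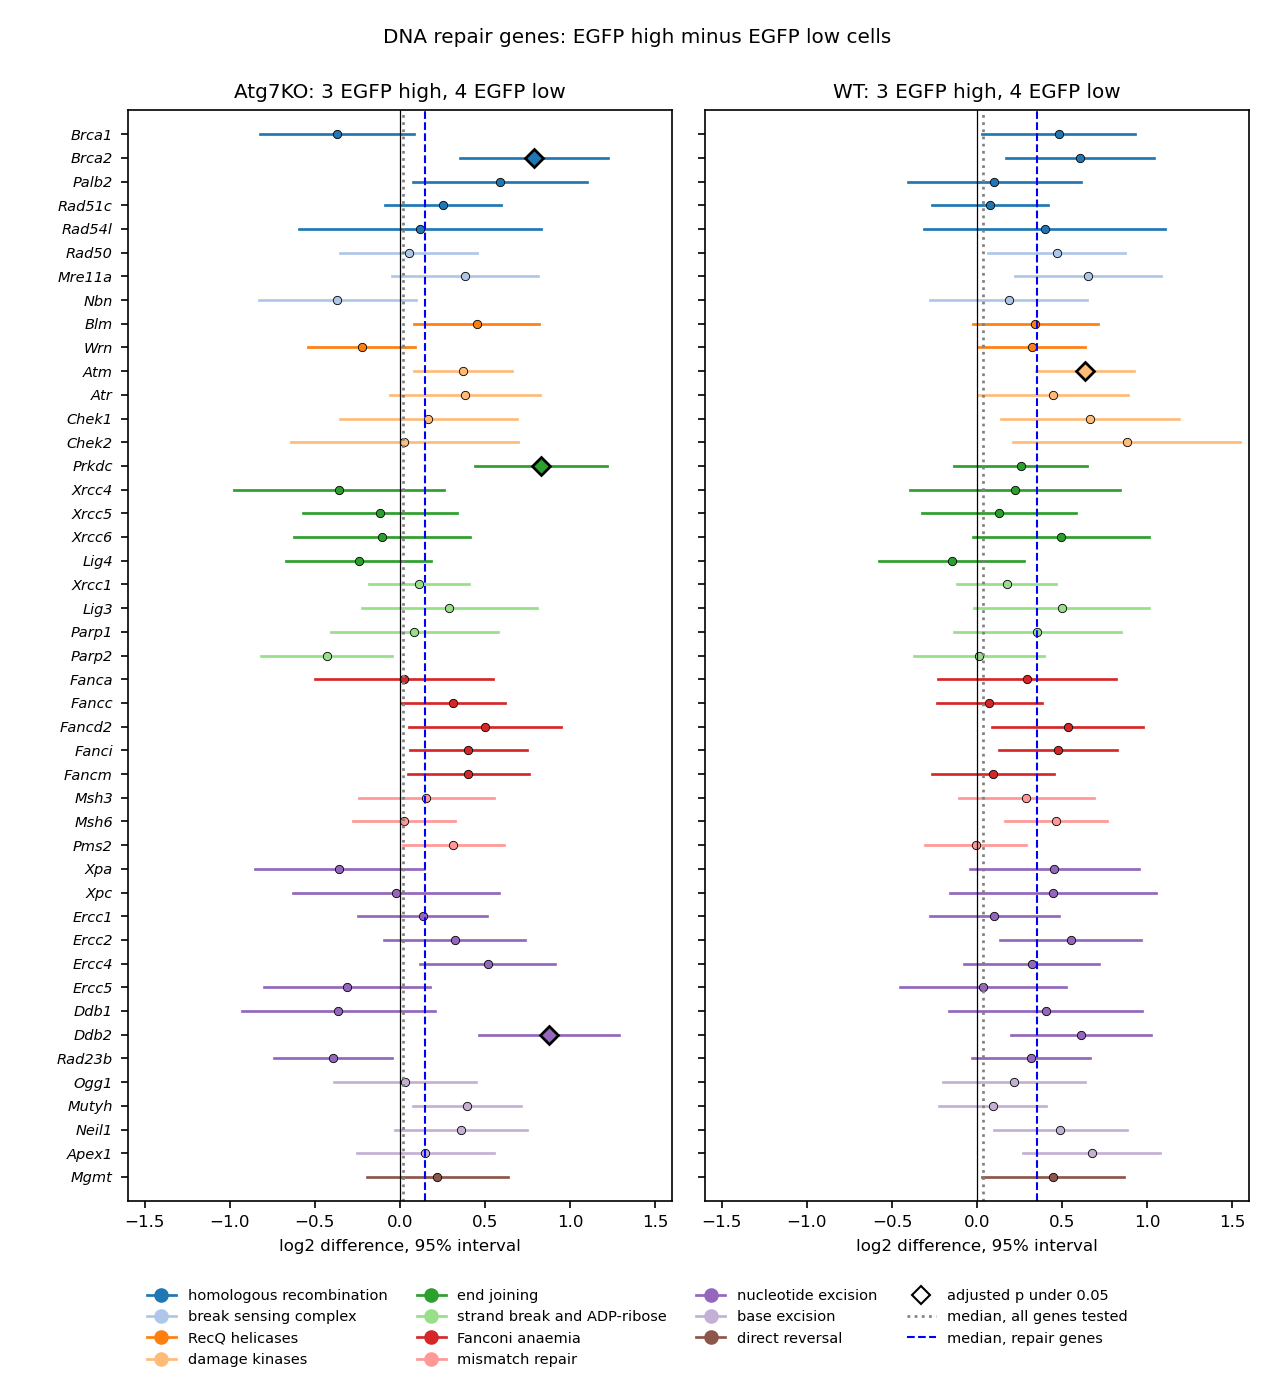
Log2 difference between EGFP high and EGFP low cells for each of the 45 tested members, in Atg7KO mice (left) and WT mice (right), with 95% intervals from limma, coloured by repair role. Diamonds mark adjusted p under 0.05; in WT mice 43 members lie right of 0 and in Atg7KO mice 32 do.

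The damage kinases held the largest WT differences of any role with more than 1 member, with a median of 0.65 over 4 genes, and all 4 had an unadjusted p under 0.05. Atm was at 6.99, 7.04 and 7.04 in EGFP high cells, against 6.60, 6.40, 6.30 and 6.26 in EGFP low cells of WT mice. The groups did not overlap, and the spread was 0.03 (SD, n = 3) in EGFP high and 0.15 (SD, n = 4) in EGFP low cells. The difference was 0.63 ± 0.13 (SE, adjusted p = 0.0243). That call was lost, at adjusted p between 0.0514 and 0.105, when WT-Low-407, WT-Low-409 or any of the 3 WT-High arrays was left out. The difference stayed between 0.60 and 0.65 in these fits, and between 0.59 and 0.70 with any single array left out. It was also lost when only the WT groups were fitted (adjusted p = 0.0541).

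Chek2, the checkpoint kinase downstream of Atm, differed by 0.88 ± 0.31 (SE, adjusted p = 0.175). It was at 6.61, 7.37 and 7.25 in EGFP high cells, against 6.50, 6.76, 6.26 and 5.26 in EGFP low cells, with WT-Low-411 the lowest and an overlap between the groups. Its difference was the largest of all members with that array and 0.57 without it, behind those of Brca2, Atr, Apex1 and Atm. Chek1, the kinase downstream of Atr, differed by 0.66 ± 0.24 (adjusted p = 0.192), or 0.42 with array SD in the model, and Atr itself, which senses replication stress, by 0.45 ± 0.21 (adjusted p = 0.328). Without WT-Low-411 the difference of Atr was 0.66 (adjusted p = 0.0419).

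Among the genes that process breaks, Mre11a, the nuclease of the Mre11-Rad50-Nbn complex, was at 7.18, 7.52 and 7.31 in EGFP high cells, against 6.97, 6.69, 6.82 and 6.27 in EGFP low cells of WT mice. Its groups did not overlap, and the difference was 0.65 ± 0.20 (SE, adjusted p = 0.116). Rad50, the ATPase of that complex, differed by 0.47 ± 0.19, and Nbn, its adaptor, by 0.19 ± 0.22, or 0.10 without WT-Low-411. In homologous recombination all 5 tested members had positive differences (0.077 to 0.60), led by Brca2, a recombination mediator. The end joining genes were the role with the smallest median, 0.22 over 5 genes, and none had an unadjusted p under 0.05.

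In the excision and mismatch pathways, Apex1, the abasic site endonuclease, was at 8.44, 8.80 and 8.30 in EGFP high cells, against 7.83, 7.79, 7.95 and 7.79 in EGFP low cells of WT mice. The groups did not overlap, and the difference was 0.67 ± 0.19 (SE, adjusted p = 0.0766). Msh6, a mismatch recognition protein, was at 6.96, 7.36 and 7.46 against 6.85, 6.95, 6.68 and 6.71, a difference of 0.46 ± 0.14 (adjusted p = 0.109). All 9 nucleotide excision members had positive differences, from 0.035 (Ercc5, a flap-cutting nuclease) to 0.61 (Ddb2, the ultraviolet damage sensor). Ercc5 turned to -0.053 without WT-Low-411 and to -0.084 without WT-High-388. Mgmt, which removes alkyl groups from guanine, was at 5.12, 5.33 and 5.07 against 4.79, 4.99, 4.63 and 4.51, and differed by 0.45 ± 0.19 (adjusted p = 0.294).

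The Fanconi anaemia genes were led by Fancd2, the protein monoubiquitinated at crosslinks (0.53 ± 0.21), and its partner Fanci. Fanci was at 5.52, 5.81 and 5.83 in EGFP high cells, against 5.06, 5.69, 5.08 and 5.15 in EGFP low cells of WT mice. The array WT-Low-407 alone made the groups overlap. The difference was 0.48 ± 0.16 (SE, adjusted p = 0.155), and 0.62 (adjusted p = 0.0409) without that array.

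In Atg7KO mice the members lay on both sides of 0. Of 45 members, 32 had positive differences between EGFP high and EGFP low cells, with a median of 0.15 (range -0.43 to 0.87), against 0.018 over all genes. Brca2, Prkdc and Ddb2 rose at an adjusted p under 0.05, which is 3 of 45 where 10.9% of all genes were called. At an unadjusted p under 0.05, 13 members were higher and 2 lower, against 12.6% and 14.4% of all genes. Arrays did not overlap for 8 members higher and 1 lower, against 10.8% and 11.8%. Without Atg7KO-High-356 the median was 0.26 and without Atg7KO-Low-387 it was 0.099, with 32 and 28 positive members. With the SD of each array in the model as a covariate, Brca2, Prkdc and Ddb2 were not called (adjusted p = 0.199, 0.0735 and 0.0552), while their differences were 0.61, 0.81 and 0.94. In that model 3.12% of all genes were called. Array SD ran from 1.900 to 1.976 in EGFP high and from 1.980 to 2.035 in EGFP low cells of Atg7KO mice. Array spread and gate therefore cannot be told apart there.

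Prkdc, the catalytic subunit of the DNA-dependent protein kinase of end joining, was at 6.02, 6.34 and 6.35 in EGFP high cells, against 5.24, 5.72, 5.44 and 5.23 in EGFP low cells of Atg7KO mice. Every EGFP high array was above every EGFP low array, and the difference was 0.83 ± 0.18 (SE, adjusted p = 0.0110). In WT mice the values were 6.03, 6.14 and 6.19 against 5.79, 6.05, 5.45 and 6.16, with overlap and a difference of 0.25 ± 0.18 (adjusted p = 0.565). The difference between the genotypes, 0.58 ± 0.26, was not called (adjusted p = 0.340). The other 4 end joining members were lower in EGFP high cells of Atg7KO mice (-0.36 to -0.10) and none of these passed the test.

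Ddb2 was at 7.86, 7.59 and 7.40 in EGFP high cells, against 7.22, 6.89, 6.32 and 6.54 in EGFP low cells of Atg7KO mice, a difference of 0.87 ± 0.19 (SE, adjusted p = 0.0113). In WT mice it was at 7.40, 7.32 and 7.51 against 6.95, 6.73, 6.85 and 6.67, a difference of 0.61 ± 0.19 (adjusted p = 0.125). The gates did not overlap in either genotype. The Atg7KO call was lost without Atg7KO-High-356 (difference 0.75, adjusted p = 0.0612) and when only the Atg7KO groups were fitted (adjusted p = 0.0574).

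Brca2 was at 6.53, 6.27 and 6.66 in EGFP high cells, against 6.01, 5.88, 5.60 and 5.30 in EGFP low cells of Atg7KO mice, a difference of 0.79 ± 0.20 (SE, adjusted p = 0.0244). In WT mice it was at 6.97, 6.59 and 6.52 against 5.74, 6.21, 5.98 and 6.43, a difference of 0.60 ± 0.20 (adjusted p = 0.154). Again the gates did not overlap in either genotype. The Atg7KO call was lost without Atg7KO-High-356, Atg7KO-High-386, Atg7KO-Low-386 or Atg7KO-Low-387 (differences 0.65 to 0.77, adjusted p 0.0546 to 0.0844), and when only the Atg7KO groups were fitted (adjusted p = 0.0529).

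The Fanconi anaemia genes were positive in all 5 cases in Atg7KO mice, with a median of 0.40, and 4 had an unadjusted p under 0.05. Fanci was at 5.54, 5.34 and 5.51 against 5.06, 5.15, 5.05 and 4.99, without overlap and with a difference of 0.40 ± 0.16 (SE, adjusted p = 0.122). Blm, a RecQ helicase that dissolves recombination intermediates, was at 6.20, 6.36 and 6.24 against 6.05, 6.09, 5.38 and 5.74, a difference of 0.45 ± 0.17 (adjusted p = 0.102). Atm was at 6.39, 6.79 and 6.72 against 6.22, 6.25, 6.30 and 6.28, and differed by 0.37 ± 0.13 (adjusted p = 0.0883). The members with negative differences and an unadjusted p under 0.05 were Parp2, an ADP-ribosyltransferase at strand breaks (-0.43 ± 0.18), and Rad23b. The Parp2 difference was -0.19 without Atg7KO-High-356 and -0.65 without Atg7KO-High-386, where it was called (adjusted p = 0.0263). Rad23b, the partner of Xpc in damage recognition, was at 8.55, 8.52 and 8.56 against 9.12, 8.83, 8.85 and 8.94, without overlap and with a difference of -0.39 ± 0.16 (adjusted p = 0.134), or -0.10 with array SD in the model.

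**Figure D2:**
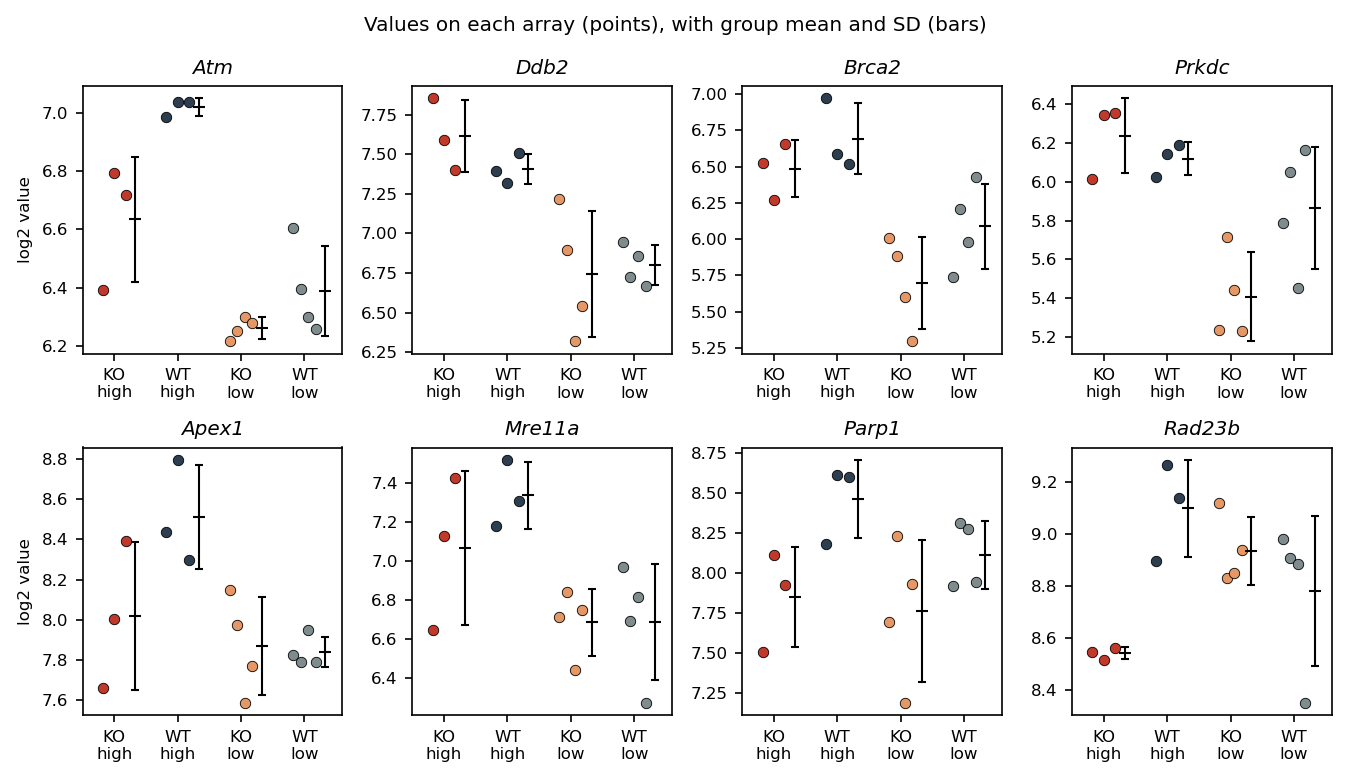
Log2 value on each array for 8 members, for the EGFP high and then the EGFP low gate, Atg7KO left of WT in each, with the group mean and SD as bars. Atm, Ddb2 and Brca2 are higher on every EGFP high array than on any EGFP low array of the same genotype, Prkdc in Atg7KO mice only, and Rad23b is lowest on the 3 Atg7KO EGFP high arrays among the EGFP high arrays.

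Positive differences in both genotypes were found for 31 of the 45 members (68.9%), against 31.7% of all tested genes. Of the 31, 5 had an unadjusted p under 0.05 in both (Atm, Brca2, Ddb2, Fancd2 and Fanci), which is 11.1% of the members against 2.88% of all genes. The group means in these comparisons share no arrays. Their p-values are not independent, because the fit over all arrays gave each gene the same variance estimate for both genotypes. Some title numbers recur in both gates of a genotype, as in WT-High-411 and WT-Low-411, and the labels do not state what they count.

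Within EGFP high cells most repair genes were lower in Atg7KO than in WT mice, and 0 passed the test. Of 45 members, 36 had negative differences, with a median of -0.27 (range -0.68 to 0.21), against -0.032 over all genes. No member was called by limma, where 0.0126% of all genes were, and the smallest adjusted p was 0.181, that of Rad23b. At an unadjusted p under 0.05, 12 members were lower and 0 higher, against 9.88% and 5.99% of all genes. The 3 Atg7KO arrays all lay below the 3 WT arrays for 13 members and above them for 0, against 15.2% and 10.2% of all genes. The mean over the 45 members was 6.11, 6.26 and 6.29 on the Atg7KO arrays, and 6.36, 6.53 and 6.48 on the WT arrays, with no overlap.

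The size of that shift depended on how the spread of values on the arrays was treated. When array SD entered the model as a covariate, an alternative chosen after seeing the data, the median was -0.042 and 18 members had positive differences. Without the 2 narrowest arrays it was -0.22, with 13 positive. The array SDs were 1.90, 1.93 and 1.98 in Atg7KO and 1.99, 2.06 and 2.05 in WT EGFP high cells, without overlap. Array spread and genotype therefore cannot be told apart in this gate, and the model with array SD does not decide between them. Highly expressed genes in general had lower values on the Atg7KO arrays of this gate: when all tested genes were split into 5 classes of equal size by mean level, their median difference was 0.13, 0.093, -0.054, -0.20 and -0.24 from the lowest to the highest class. The members of those classes, 4, 5, 15, 15 and 6 genes, had medians of 0.14, -0.0049, -0.22, -0.32 and -0.52. Between the gates the members' medians in these classes were 0.31, 0.36, 0.13, 0.12 and -0.16 in Atg7KO mice, against 0.098, 0.11, 0.037, -0.084 and -0.19 over all genes. In WT mice they were 0.081, 0.32, 0.34, 0.46 and 0.38, against -0.043, -0.015, 0.064, 0.11 and 0.11.

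**Figure D3:**
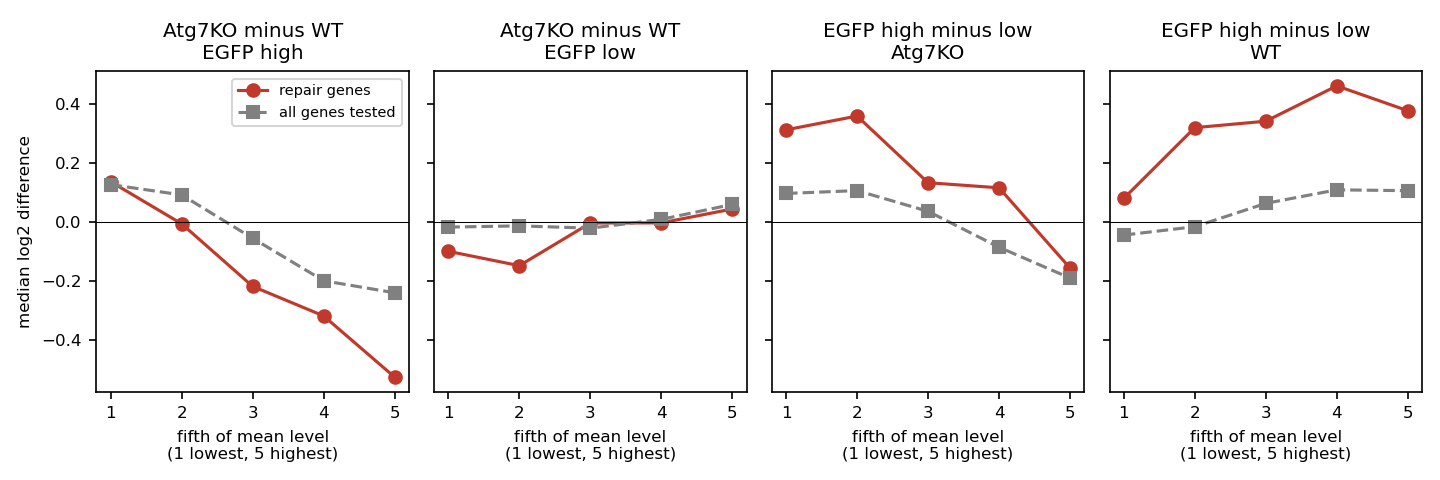
Median log2 difference of the repair genes (circles) and of all tested genes (squares) in each of the 5 classes of mean level, for the 4 group comparisons. For Atg7KO minus WT in EGFP high cells both lines descend from the lowest to the highest class, and in WT mice the repair genes lie above all genes in each class of the EGFP high minus low comparison.

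The members with the largest differences and no overlap between genotypes in EGFP high cells were Ddb1, Xpa and Parp1. Ddb1, an adaptor of the Cul4 ubiquitin ligase that binds Ddb2, was at 8.36, 8.46 and 8.65 in Atg7KO, against 8.88, 9.31 and 9.32 in WT mice. The difference was -0.68 ± 0.28 (SE, adjusted p = 0.269), and it turned to 0.074 with array SD in the model. Xpa, a scaffold of nucleotide excision, was at 5.10, 5.70 and 5.89 in Atg7KO, against 6.18, 6.23 and 6.14 in WT mice. Its difference was -0.62 ± 0.25 (adjusted p = 0.259), or -0.39 without the 2 narrowest arrays and -0.14 with array SD in the model, and its lowest value was on Atg7KO-High-356. Parp1, the main ADP-ribose polymerase at strand breaks, was at 7.50, 8.12 and 7.92 in Atg7KO, against 8.18, 8.61 and 8.60 in WT mice, a difference of -0.62 ± 0.25 (adjusted p = 0.257), or -0.21 with array SD in the model.

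Rad23b had the narrowest group of these genes, at 8.55, 8.52 and 8.56 in Atg7KO, against 8.90, 9.26 and 9.14 in WT EGFP high cells, a difference of -0.56 ± 0.17 (SE, adjusted p = 0.181). Atm had Atg7KO values of 6.39, 6.79 and 6.72, all below the WT values of 6.99, 7.04 and 7.04 (difference -0.39 ± 0.14, adjusted p = 0.233). Msh6 was at 6.73, 6.91 and 6.90 against 6.96, 7.36 and 7.46, likewise without overlap (difference -0.41 ± 0.15, adjusted p = 0.228). With array SD in the model these differences were -0.21 for Rad23b, -0.24 for Atm and -0.19 for Msh6. By role, all 3 break sensing, both RecQ, all 4 damage kinase and all 4 strand break genes had negative differences, and the medians ran from -0.47 for strand break and ADP-ribose genes to -0.0047 for Fanconi anaemia genes among roles with more than 1 member. Without Atg7KO-High-356 the strand break gene Xrcc1 turned to 0.0084. The 9 members above 0 lay between 0.029 and 0.21, with Ddb2 and Pms2 the highest.

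**Figure D4:**
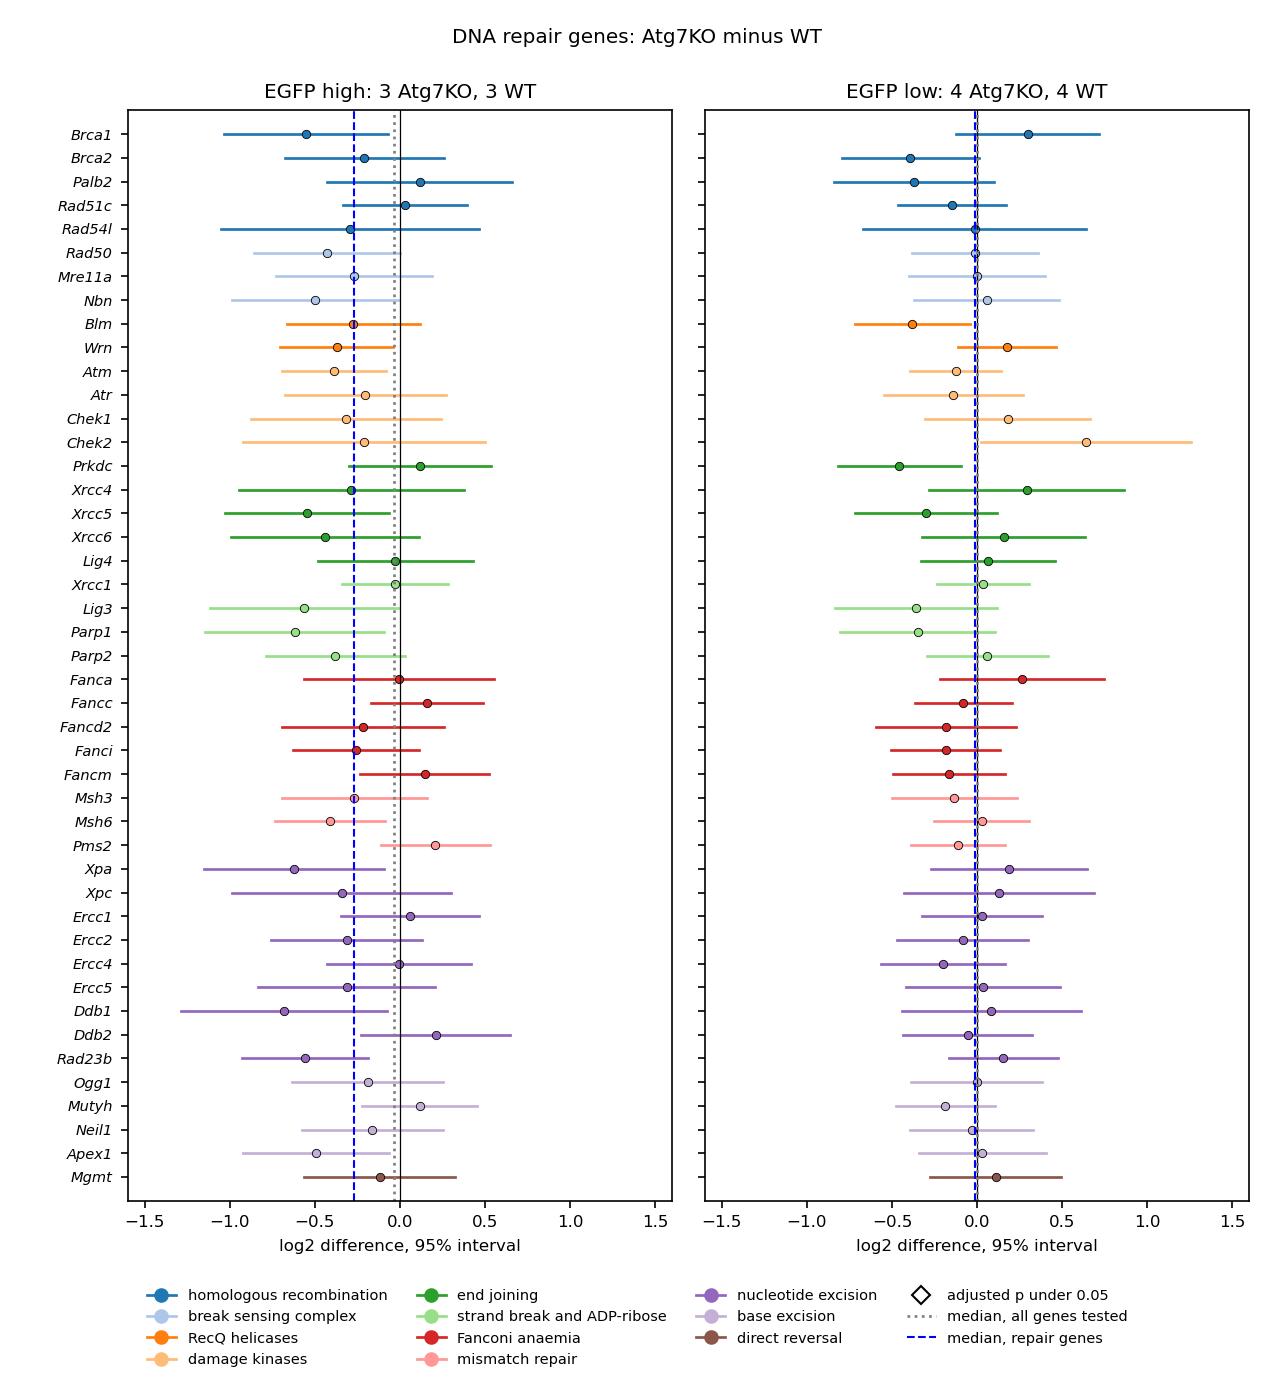
Log2 difference between Atg7KO and WT mice for each tested member, with EGFP high cells on the left and EGFP low cells on the right, with 95% intervals from limma, coloured by repair role. No member passed adjusted p under 0.05; 36 of 45 lie left of 0 in EGFP high cells and 25 do so in the low gate.

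In EGFP low cells the members were spread on both sides of 0. There were 20 positive and 25 negative differences between Atg7KO and WT mice, with a median of -0.013 against 0.0019 over all genes. Without WT-Low-411 there were 15 positive, with a median of -0.054. No member was called by limma, where 0.0063% of all genes were, and at an unadjusted p under 0.05 1 was higher and 2 were lower, against 3.86% and 3.4% of all genes. The groups overlapped for all 45 members, where 1.71% of all genes were higher and 1.69% lower without overlap. Prkdc was at 5.24, 5.72, 5.44 and 5.23 in Atg7KO, against 5.79, 6.05, 5.45 and 6.16 in WT mice (difference -0.46 ± 0.17, SE, adjusted p = 0.618). Blm was at 6.05, 6.09, 5.38 and 5.74, against 5.97, 6.36, 6.16 and 6.30 (difference -0.38 ± 0.16, adjusted p = 0.665), and the difference was -0.24 without Atg7KO-Low-387. Chek2 was the member above 0 at an unadjusted p under 0.05, with a difference of 0.64 ± 0.29 (adjusted p = 0.678), where WT-Low-411 had the lowest value of 5.26. Without that array the difference was 0.33 (unadjusted p = 0.174, adjusted p = 0.798). Of the 45 members, 17 (37.8%) were lower in Atg7KO mice in both gates and 1 (2.22%) was higher in both, against 24.5% and 21.1% of all genes.

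The difference of the genotype effect between the gates was tested as an interaction. Of 45 members, 33 had a negative value, meaning a lower Atg7KO over WT ratio in EGFP high than in EGFP low cells, with a median of -0.23 against -0.032 over all genes. None was called by limma, where 0.0063% of all genes were, and at an unadjusted p under 0.05 1 was positive (Prkdc) and 5 were negative, against 5.53% and 8.49% of all genes. Rad23b had the smallest p, with an interaction of -0.71 ± 0.23 (SE, adjusted p = 0.252), or -0.29 with array SD in the model. In EGFP low cells it was at 9.12, 8.83, 8.85 and 8.94 in Atg7KO and 8.98, 8.91, 8.89 and 8.35 in WT mice, so its Atg7KO value was not below WT there. Brca1, the recombination mediator and ubiquitin ligase, was at 5.17, 5.97 and 5.78 in Atg7KO and 5.83, 6.47 and 6.27 in WT EGFP high cells. In EGFP low cells it was at 5.89, 5.99, 6.20 and 5.95 in Atg7KO and 5.78, 6.05, 5.61 and 5.41 in WT mice, and the interaction was -0.85 ± 0.30 (adjusted p = 0.267), or -0.52 without the 2 narrowest arrays and -0.36 with array SD in the model.

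Wrn, the RecQ helicase lost in Werner syndrome, was at 6.93, 6.50 and 6.78 in Atg7KO and 7.00, 7.05 and 7.28 in WT EGFP high cells. In EGFP low cells it was at 7.20, 6.85, 6.90 and 6.90 in Atg7KO and 6.72, 6.93, 6.71 and 6.78 in WT mice, which gave an interaction of -0.55 ± 0.21 (SE, adjusted p = 0.285). The median interaction was -0.14 without Atg7KO-High-356, -0.35 without Atg7KO-Low-387, -0.10 without the 2 narrowest arrays and 0.089 with array SD in the model.

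The members known to peak with DNA replication and the other members had median differences of the same sign. Between the gates of WT mice the 9 such genes (Brca1, Brca2, Rad54l, Blm, Chek1, Fancd2, Fanci, Fanca and Msh6) were all positive, with a median of 0.48, and the other 36 had a median of 0.32 with 34 positive. In Atg7KO against WT EGFP high cells, all 9 were negative with a median of -0.27, and the other 36 also had a median of -0.27, with 27 negative and 9 positive. Of the 9 replication-peaking genes Fanca turned to 0.20 without Atg7KO-High-356. An E2F word was found in the windows of 2 of the 8 replication-peaking members that had one.

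Cell cycle genes shifted in the direction of the repair members in some comparisons and not in others. Of 35 tested S phase genes, which copy DNA or make nucleotides, 33 were higher in EGFP high than in EGFP low cells of WT mice (median 0.45), and 29 were lower in Atg7KO than in WT EGFP high cells (median -0.38). Of 24 tested G2 and M genes, 23 were higher in EGFP high than in EGFP low cells of WT mice (median 0.29). All 24 were lower in Atg7KO than in WT EGFP high cells, with a median of -0.45. Their mean level ran from 7.78 to 8.00 on the 3 Atg7KO arrays and from 8.29 to 8.38 on the 3 WT arrays, without overlap. In Atg7KO mice the S phase and G2 and M medians between the gates were -0.045 and -0.19, against 0.15 for the repair members. In Atg7KO against WT EGFP low cells these medians were 0.099 and 0.061, against -0.013. The part of the cell cycle in the repair gene differences was not tested. Mki67, a marker of dividing cells, was at 9.28, 9.14 and 9.29 in Atg7KO and 9.80, 9.37 and 9.50 in WT EGFP high cells (difference -0.32, adjusted p = 0.339).

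Targets of the damage-activated factor p53 lay on both sides of 0. Among 22 tested p53 target genes, 10 were higher in EGFP high than in EGFP low cells of WT mice, with a median of -0.063, and the median in Atg7KO against WT EGFP high cells was 0.073. Cdkn1a, the p53-regulated cell cycle inhibitor, was the 1 p53 target called between the gates. It was at 6.11, 6.56 and 7.08 in EGFP high cells, against 8.70, 8.89, 8.82 and 9.25 in EGFP low cells of Atg7KO mice, and fell by 2.33 ± 0.23 (SE, adjusted p = 1.38e-04). In WT mice it was at 7.63, 7.61 and 7.51, against 9.03, 8.95, 9.31 and 8.43, and fell by 1.34 ± 0.23 (adjusted p = 0.00884). Within EGFP high cells its mean was 6.58 ± 0.48 in Atg7KO and 7.59 ± 0.06 in WT mice (SD, n = 3 each, limma adjusted p = 0.133).

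**Figure D5:**
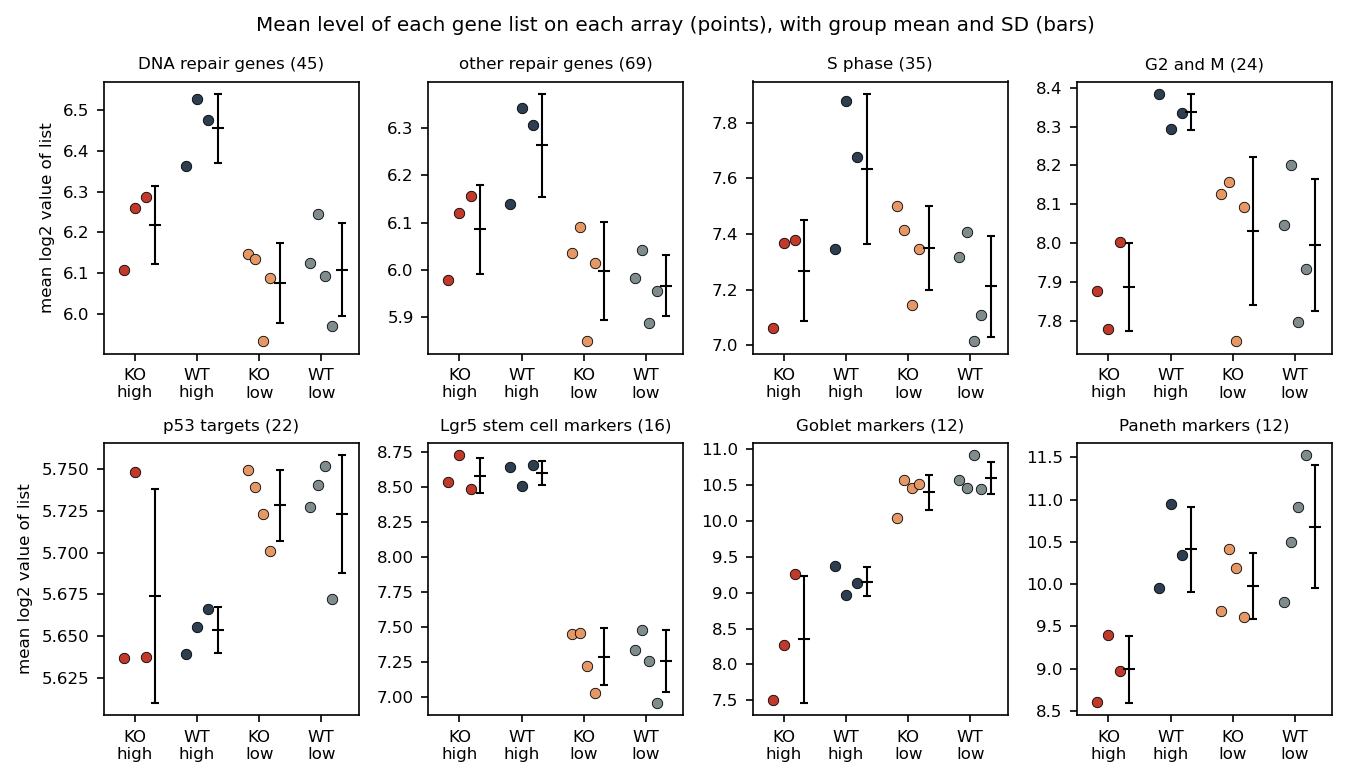
Mean log2 value of each gene list on each array (points), with the group mean and SD (bars), for the 45 repair members, other repair genes, cell cycle lists, p53 targets and markers of crypt cell types, for the EGFP high and then the EGFP low gate, Atg7KO left of WT in each. The repair members lie between 6.11 and 6.29 on Atg7KO and between 6.36 and 6.53 on WT EGFP high arrays.

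Markers of other crypt cells were read on the same arrays. In Atg7KO against WT EGFP high cells limma called 0 of the goblet, Paneth, enterocyte, enteroendocrine, tuft, leukocyte and stroma markers (smallest adjusted p = 0.0986, a Paneth marker). At an unadjusted p under 0.05, 6 goblet, 8 Paneth and 4 enterocyte markers were lower, where 9.88% of all genes were. All 12 goblet markers were lower in EGFP high than in EGFP low cells in both genotypes, with medians of -1.96 in Atg7KO and -1.42 in WT mice. Within EGFP high cells all 12 goblet and all 12 tested Paneth markers were lower in Atg7KO than in WT mice, with medians of -0.77 and -1.51. Goblet markers averaged between 7.51 and 9.26 on the Atg7KO and between 8.96 and 9.37 on the WT EGFP high arrays. Paneth markers averaged between 8.61 and 9.40 on the Atg7KO and between 9.95 and 10.9 on the WT EGFP high arrays, and 15 of 16 enterocyte markers were lower too (median -0.52, averages from 7.39 to 7.64 and from 7.52 to 8.64). The part of these cells in the repair gene differences was not tested. Enteroendocrine markers, 14 in all, had a median of 0.0084 between the genotypes in EGFP high cells, and were lower in EGFP high than in EGFP low cells (medians -1.88 in Atg7KO and -1.80 in WT mice). The tested markers of tuft cells, leukocytes and stroma, 6, 7 and 6 genes, had medians of -0.028, -0.19 and 0.12 between the genotypes in EGFP high cells. The 16 Lgr5 stem cell markers had a median of 0.051 between the genotypes in EGFP high cells, and medians of 1.20 in Atg7KO and 1.24 in WT mice between the gates.

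A further list of 77 repair genes outside the set, of which 69 were tested, had like values. Between EGFP high and EGFP low cells of WT mice, 61 of 69 were positive, with a median of 0.31. At an adjusted p under 0.05, 2 of the 69 rose, where 2.44% of all genes were called in either direction. The 2 were Timeless, a replication fork protection factor (0.93 ± 0.17, SE, adjusted p = 0.0105), and Fancl, the ubiquitin ligase of the Fanconi pathway (0.62 ± 0.15, adjusted p = 0.0483). In Atg7KO mice 42 of 69 were positive (median 0.085), and 6 rose, where 10.9% of all genes were called in either direction. Rad51b, a recombination gene, had the largest of these rises (1.21 ± 0.21, adjusted p = 0.00298). Trp53bp1, which guides breaks to end joining, differed by 0.77 ± 0.19 (adjusted p = 0.0176), and Rad54b, a recombination motor protein, by 0.99 ± 0.25 (adjusted p = 0.0200). Within EGFP high cells 49 of 69 were lower in Atg7KO than in WT mice, with a median of -0.15. Of the 69, 0 were called by limma, where 0.0126% of all genes were. At an unadjusted p under 0.05, 11 were lower and 0 higher, against 9.88% and 5.99% of all genes. The lowest p-values there were those of Rad1 of the checkpoint clamp (-0.94 ± 0.24, adjusted p = 0.133), the Brca1-associated helicase Brip1 (-0.76 ± 0.20, adjusted p = 0.138) and Rpa1, which coats single strands (-0.98 ± 0.29, adjusted p = 0.181).

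Of the members, 15 have an annotated gene in the opposite direction that starts within 1000 bases, and 12 of these neighbours were tested. Atm and Npat, a histone gene coactivator, start 376 bases apart, and between the gates of WT mice Atm differed by 0.63 ± 0.13 (SE) and Npat by 0.14 ± 0.16. Brca1 and Nbr1, an autophagy receptor, start 152 bases apart and differed by 0.48 ± 0.21 and -0.20 ± 0.16. Apex1 and Osgep, a tRNA-modifying enzyme, start 56 bases apart and differed by 0.67 ± 0.19 and 0.37 ± 0.16. Mre11a and Ankrd49, 81 bases apart, differed by 0.65 ± 0.20 and 0.53 ± 0.38. Other pairs went the other way, with the neighbour above the member. These were Lig3 and Gm11423 (0.50 ± 0.24 and 1.02 ± 0.28), and Pms2 and Aimp2 (-0.0088 ± 0.14 and 0.39 ± 0.23). Palb2 and Dctn5 (0.10 ± 0.24 and 0.19 ± 0.16) and Lig4 and Abhd13 (-0.15 ± 0.20 and -0.080 ± 0.17) did so too. In the remaining tested pairs the member lay above its neighbour. No tested neighbour was called between the gates of WT mice, and the difference within a pair was not tested.

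The spread between arrays of a group was close to that of genes in general. The median SD of the members was 0.22 in Atg7KO and 0.18 in WT EGFP high cells, and 0.25 in both Atg7KO and WT EGFP low cells, against 0.23, 0.17, 0.24 and 0.25 over all tested genes in the same order of groups. The most variable members were Xpc in Atg7KO EGFP high (SD 0.54), Xrcc6 in WT EGFP high (0.42), Rad54l in Atg7KO EGFP low (0.62) and Chek2 in WT EGFP low cells (0.66). Tdg, which was not tested, lay between 2.24 and 3.54 on the EGFP high arrays and between 2.03 and 3.38 on the EGFP low arrays.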

How the data were processed

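RNA of sorted cells, 1 ng per sample, was amplified (Ovation Pico System V2) and hybridised to 14 arrays, per the labels' protocols. The authors deposited log2 values from RMA in Affymetrix Expression Console, per the submitters' processing notes; the sources used here give neither versions nor the probe set definition. The table holds 25429 probe sets, of which 24675 carried 1 gene symbol, 0 several and 754 none. Arrays give no counts, so their number limits the precision.

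A gene was tested if its value reached the 40th percentile of the array's values on 3 or more arrays, and 15873 genes did. A model of group means was fitted with limma 3.58.1 (lmFit, eBayes; R 4.3.3) over 4 groups, with 10 residual degrees of freedom, contrasts between gates, between genotypes and for the interaction, and Benjamini-Hochberg adjustment at 0.05. Tested on simulated data for EGFP high against low cells of WT mice, the fit called 64% of genes changed by 1 log2 unit and 95% of those changed by 2. It also made 20 false calls among the unchanged genes there. For a change of 1 log2 unit it called 54% between genotypes in the EGFP high gate, 70% in the low gate and 34% for the interaction. All member differences were smaller than 1 log2 unit, and changes of that size were not simulated. Medians over lists are descriptions with no test. The lists were other repair genes, S phase, G2 and M, p53 targets and markers of Lgr5 stem, enterocyte, goblet, Paneth, enteroendocrine, tuft, leukocyte and stromal cells.

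Named with values on each array were members called in a comparison, those with the largest differences without overlap (or the 2 smallest p-values where there were none), the 3 smallest interaction p-values, and the member with the smallest p in each role. Values of Chek2 on WT arrays were given outside this rule. The members and lists were chosen with earlier results of these data known. Alternatives covered renormalisation, filters, array weights, samples left out, a replicate block and, added after seeing the data, array spread. Promoters were matched by Entrez gene ID to a RefSeq table (GRCm38.p6), with Python 3.11.15 and pandas 2.3.3.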

Additional observations from a re-analysis of the deposited data

Results flagged for a closer look

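In each group of 4 samples the members named by the rule above, and the mean over the members, were examined for an array far from the other 3. This covered 34 groups, of which chance flags about 1 in 20, and left out Chek2. Rad23b was at 8.35 on WT-Low-411, against 8.89 to 8.98 on the other WT EGFP low arrays. Wrn was at 7.20 on Atg7KO-Low-356, against 6.85 to 6.90 on the other Atg7KO EGFP low arrays. Fanci was at 5.69 on WT-Low-407, against 5.06 to 5.15 on the other WT EGFP low arrays.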

How the results depend on the processing

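For Atg7KO against WT in EGFP high cells the median member difference of -0.27 was -0.14 after repeated quantile normalisation, -0.16 after cyclic loess, -0.37 after median centring and -0.042 with array SD in the model, where Ddb1 turned to 0.074. Leaving out single samples gave -0.32 to -0.22. Array weights called 2 members there by limma (Ddb1 and Rad23b, 4.44% of the members, where 4.43% of all genes were called), against 0 without weights. For the interaction the median of -0.23 was -0.10, -0.11 and -0.35 after repeated quantile normalisation, cyclic loess and median centring, 0.089 with array SD in the model and -0.10 without the 2 narrowest arrays. It ran from -0.35 to -0.14 with single samples left out.

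Between the gates of WT mice, 0 members were called when only the groups compared were fitted (2.35% of all genes called), 8 with array weights (17.8% of the members, 7.57% of all genes), and 2 without the 2 narrowest arrays (Atm and Atr, 4.44% of the members, 2.27% of all genes). The array weight was 3.27 for WT-High-412, against 0.96 for WT-High-388 and 1.44 for WT-High-411, and it was 0.37 for WT-Low-411. The weighted fit thus leaned on WT-High-412. Single samples left out gave 0 to 2 calls and medians of 0.31 to 0.45. In Atg7KO mice, 1 was called with only the groups compared (Prkdc, with 6.47% of all genes called), 1 with array SD in the model (Mre11a, 3.12% of all genes) and 4 without the 2 narrowest arrays (Atm, Atr, Ercc4 and Prkdc, 8.89% of the members, 6.99% of all genes). The median of 0.15 was 0.30 with array SD in the model and 0.26 without the 2 narrowest arrays, and ran from 0.099 to 0.26 with single samples left out, which gave 2 to 4 calls (Ercc4 and Prkdc without Atg7KO-High-356). The causes were not tested. The 25 alternatives for Atg7KO against WT in EGFP low cells called 0 members.

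As a replicate block, the title numbers (consensus correlation 0.073) gave medians of -0.28 in EGFP high and -0.015 in EGFP low cells for Atg7KO against WT. The blocked medians were 0.14 in Atg7KO and 0.36 in WT mice between the gates and -0.24 for the interaction. The block changed no member's call. Deviations of same-numbered samples correlated at 0.11 (Atg7KO-High-356 with Atg7KO-Low-356), 0.18 (Atg7KO-High-386 with Atg7KO-Low-386) and -0.040 (WT-High-411 with WT-Low-411). With the other EGFP high samples of the same genotype, the highest correlations of these EGFP low samples were -0.031, -0.035 and 0.14. The labels do not state what the numbers count, so they were not taken as pairs in the main fit.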
